A study of Mus musculus with 2 samples.

Results

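The Wnt ligand, receptor and nuclear effector genes are described here in 2 cell populations of the mouse embryonic forelimb. The 44 genes were taken from the deposited tables by symbol: 19 Wnt ligands, 10 Frizzled receptors, 2 LRP co-receptors, 3 Ror and Ryk receptors, 3 R-spondin receptors, 4 TCF/LEF factors and 3 feedback genes. All 44 were listed, out of 22096 symbols, in 58 transcript rows per library with no failed estimate.

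Forelimbs of ScxGFP embryos at E13.5, on a mixed strain background, were pooled (6 limbs, or 3 pairs, per sample) and sorted into GFP-positive and GFP-negative cells. GFP in this line is under control of *Scx* regulatory DNA, *Scx* being the gene of the tendon and ligament progenitor factor scleraxis, so both groups carry it and differ in whether it was active enough for the sort. Each population gave 1 library. There was therefore no replicate and no test, and every difference below describes these 2 libraries. In bulk RNA, fewer cells of a type and less RNA per cell cannot be told apart.

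Wnt proteins are secreted lipid-modified ligands that bind Frizzled receptors together with LRP co-receptors, or with Ror and Ryk. In the branch that works through beta-catenin, the signal stops the destruction complex, and beta-catenin enters the nucleus to act with TCF/LEF factors. In the limb bud, Wnts of the ectoderm pattern and maintain the underlying mesenchyme, *Wnt5a* of the mesenchyme drives outgrowth, and other Wnts mark the forming joints.

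Levels are given as the deposited FPKM, a fragment count scaled to transcript length and library size, and a gene's level is the sum of its transcripts. Ratios are log2 ratios of FPKM + 1, positive over negative library, a scale on which differences of low genes come out too small. Genes that reached 1 FPKM in either library are called measured. Among the 12096 measured genes the positive library was at least 2-fold higher for 4.03% and at least 2-fold lower for 9.98%. Over all 22090 symbols with a value in both libraries these shares were 2.21% and 5.46%. The median log2 ratio of measured genes was −0.27. *Scx* stood at 134 FPKM in the positive against 1.69 in the negative library, and none of the 57 markers of 8 cell types looked up was listed at 0 in either.

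Of the 44 Wnt pathway genes, 5 exceeded 2-fold in the direction of ScxGFP-positive cells: the ligands *Wnt9a* and *Wnt11* and the receptors *Fzd8*, *Ror1* and *Lgr5*. Another 8 were at least 2-fold lower: the ligands *Wnt3*, *Wnt4*, *Wnt6*, *Wnt7b* and *Wnt10b*, the receptors *Fzd6* and *Fzd10*, and the factor *Tcf7*. These are 11.4% and 18.2% of all 44, to be read against the 2.21% and 5.46% above. In all, 33 genes were measured, 22 of them in both libraries, 5 in the positive library only and 6 in the negative library only. Genes that pass the filter through 1 library are bound to differ. Measured in the positive library only were *Wnt5b*, *Wnt9a*, *Wnt11*, *Ror1* and *Lgr5*. Measured in the negative library only were *Wnt3*, *Wnt6*, *Wnt7b*, *Wnt10b*, *Fzd5* and *Fzd6*. The places of such genes among the ratios of measured genes are partly fixed by the filter. The median log2 ratio was −0.13 over the 33 and −0.071 over all 44, against −0.037 for all symbols.

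The split depended on how the libraries were scaled. With the median ratio of measured genes set to 1, 6 genes were higher and 5 lower, and equal upper quartiles gave the same counts. Rescaling to equal sums (TPM) gave 10 and 9, TPM without haemoglobin genes 9 and 10, and TPM without transcripts under 200 bases 11 and 7. With a pseudocount of 5 in place of 1, none of the 13 kept a 2-fold ratio. Of the 43 genes with a value above 0 in the negative library, 9 changed which library was higher under at least one of the 5 scalings. The 9 were *Fzd3*, *Fzd5*, *Lrp5*, *Ryk*, *Lgr4*, *Lgr6*, *Tcf7l1*, *Axin2* and *Nkd2*.

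**Figure D1:**
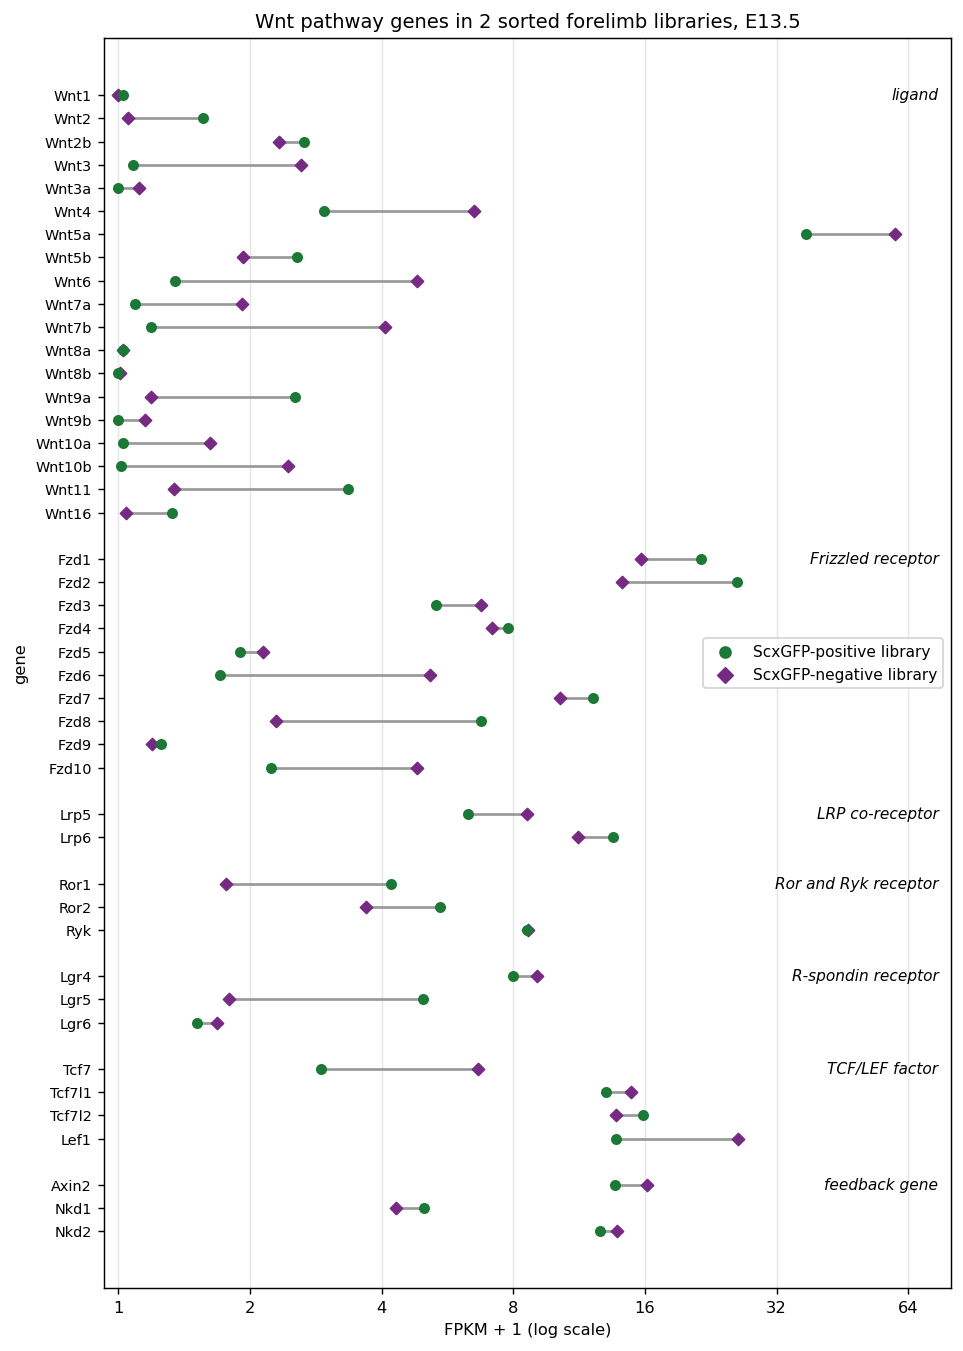
FPKM + 1 on a log axis for each of the 44 genes, 1 point per library, with a line joining the libraries. *Wnt5a* stands far to the right of every other ligand in both libraries, and lines run furthest to the left for the positive library at *Wnt6*, *Wnt7b* and *Fzd6*.

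**Figure D2:**
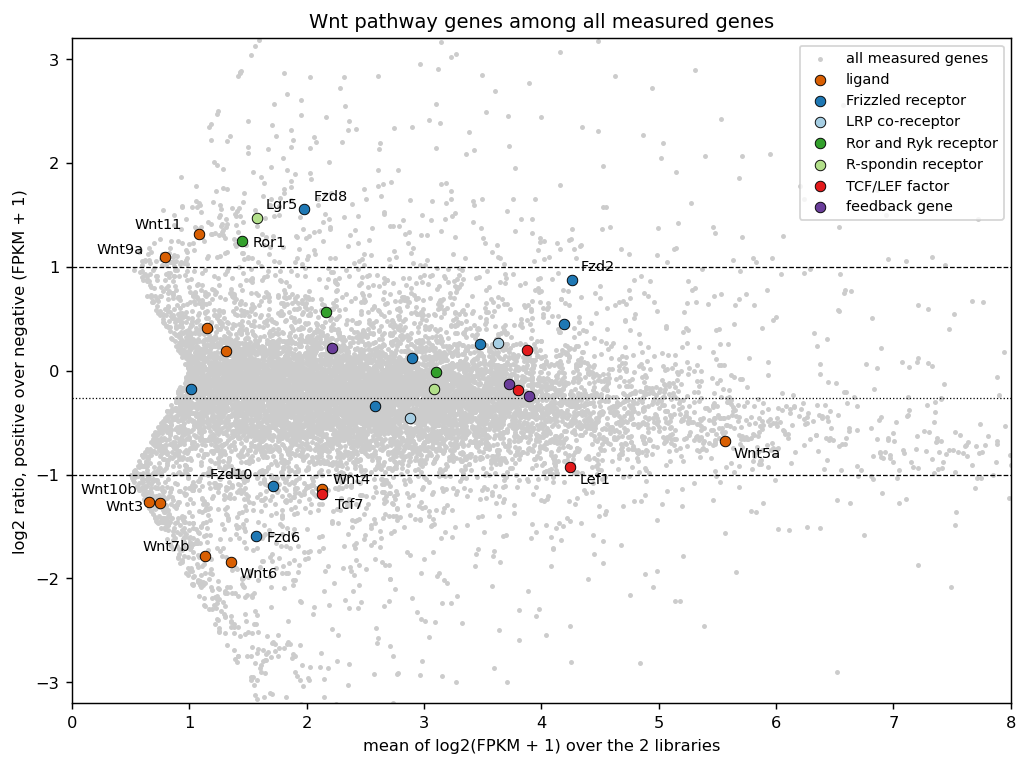
Log2 ratio of FPKM + 1 against mean level for 11812 of the 12096 measured genes (grey; 284 lie beyond the axes) and the 33 measured Wnt pathway genes (coloured by role). Dashed lines mark 2-fold and the dotted line the median of all genes; the 13 genes past 2-fold lie toward the left, at low mean levels.

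*Wnt5a* dominated the ligands of both populations. Its FPKM was 36.3 in the positive against 58.8 in the negative library, which was 77.2% and 74.4% of the summed FPKM of the 19 ligands. The level in positive cells was thus lower (log2 ratio −0.68), while its share of ligand transcripts was similar. The *Wnt5a* protein acts mainly without beta-catenin, through Ror receptors. Summed ligand FPKM was 47.0 in the positive against 79.0 in the negative library.

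The ligands described from limb ectoderm were lower in ScxGFP-positive cells. This group of 7 holds *Wnt3*, *Wnt4*, *Wnt6*, *Wnt7a*, *Wnt7b*, *Wnt10a* and *Wnt10b*. Their FPKM summed to 2.70 in the positive against 17.0 in the negative library. In the negative library they made up 84.2% of ligand FPKM other than *Wnt5a*, and in the positive library 25.2%. All 7 were lower, and 5 were lower by at least 2-fold, or 71.4%, to be read against 5.46% of all symbols with a value. Of these 5, 4 were measured only in the negative library and so were bound to differ. The fifth, *Wnt4*, fell short of 2-fold under 4 of the 5 other scalings.

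*Wnt6*, an ectodermal ligand, stood at 0.349 FPKM in the positive against 3.83 in the negative library (log2 ratio −1.84). *Wnt7b* stood at 0.188 against 3.08 (−1.78). The order among these ligands depends on the pseudocount: with 0.1 in place of 1, *Wnt10b* was lowest at −3.74 and *Wnt6* stood at −3.13. With the pseudocount of 1, 3.41% and 3.60% of measured genes had lower ratios than *Wnt6* and *Wnt7b*. *Wnt3*, which is needed in mouse limb ectoderm to form the apical ridge, stood at 0.0782 against 1.61 FPKM (−1.28), and *Wnt10b* at 0.0158 against 1.44 (−1.27). Little sequence lies behind the positive values: about 80.4 aligned bases for *Wnt10b* and 556 for *Wnt3*, which leaves the size of the fold uncertain.

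The dorsal ectoderm signal *Wnt7a*, which instructs dorsal limb identity, stood at 0.0944 against 0.915 FPKM, below the filter in both libraries. *Wnt10a* stood at 0.0236 against 0.622. As a percentage of the negative library, the positive FPKM was 1.10% for *Wnt10b*, 3.78% for *Wnt10a*, 4.85% for *Wnt3*, 6.10% for *Wnt7b*, 9.13% for *Wnt6* and 10.3% for *Wnt7a*. *Wnt4* stood apart from these 6 at 35.6%.

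Epidermal markers moved with these ligands. Of 12 such markers 10 were at least 2-fold lower in positive cells and 0 higher. Over all symbols with a value 5.46% were lower and 2.21% higher. FPKM of the 12 markers summed to 13.8 in the positive against 354 in the negative library. Single markers lay between 2.75% and 32.2% of their negative value, with a median of 4.39%. The keratin gene *Krt5*, the most abundant, stood at 4.67 against 151 FPKM. Endothelial and nerve markers overlapped this range, endothelial ones between 2.93% and 48.4% and Schwann cell and nerve ones between 1.54% and 18.2%. Leukocyte and macrophage markers lay between 1.26% and 3.82% (median 1.97%) and erythroid ones between 1.03% and 3.10% (median 1.90%), mostly below it. The part of any of these cells in the ligand differences was not tested.

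**Figure D3:**
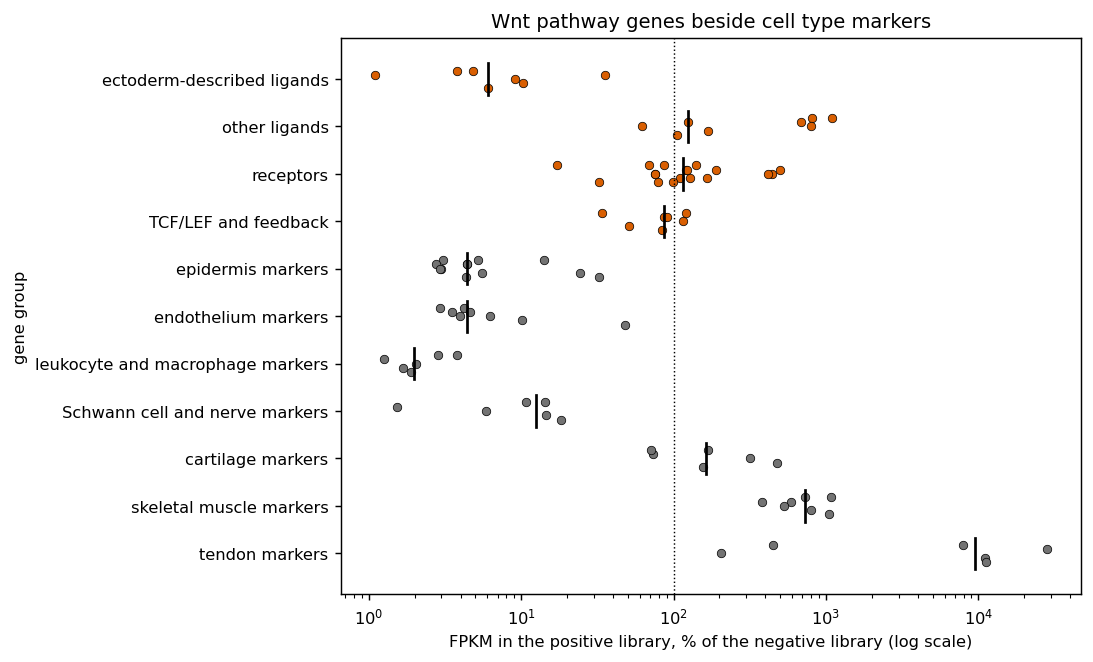
Positive-library FPKM as a percentage of negative-library FPKM, 1 point per gene on a log axis, for groups of Wnt pathway genes (orange) and lists of cell type markers (grey), with a bar at each group's median. Among ligands, *Wnt3a*, *Wnt8b* and *Wnt9b* are at 0% and *Wnt1* has no value, so these are not drawn; the ectoderm-described ligands (1.10% to 35.6%, median 6.10%) and the epidermis markers (2.75% to 32.2%, median 4.39%) overlap, as do the endothelium markers (2.93% to 48.4%, median 4.41%) and the Schwann cell and nerve markers (1.54% to 18.2%, median 12.6%).

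Ligands known from the joint interzone, where cartilage elements will separate, did not run together. *Wnt9a*, which is expressed where joints form, stood at 1.54 FPKM in the positive against 0.189 in the negative library (log2 ratio 1.09). *Wnt16* lay on the same side at 0.324 against 0.0407, below the filter. *Wnt4*, described from ectoderm as well as from joints, was lower, at 1.96 against 5.50 (−1.14). That ratio was −0.88 with the median ratio set to 1, short of 2-fold.

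*Wnt11*, a ligand that acts largely without beta-catenin, was higher in positive cells. It stood at 2.35 FPKM in the positive against 0.344 in the negative library. The log2 ratio was 1.32, and 2.70% of measured genes exceeded it. *Wnt11* was measured in the positive library only, so this place is partly fixed by the filter. Its FPKM was 6.47% of that of *Wnt5a* in positive and 0.585% in negative cells, a comparison within each library that no scaling alters.

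Of the remaining ligands, *Wnt2b* stood at 1.65 against 1.33 FPKM and *Wnt5b*, the close relative of *Wnt5a*, at 1.56 against 0.931. The 4219-base transcript of *Fbxl14* (2.36 against 3.23 FPKM) lies within the span of *Wnt5b*, and the library chemistry does not mark strand, so reads where they overlap cannot be told apart. *Wnt2* stood at 0.565 against 0.0515, the latter on about 260 aligned bases. *Wnt1*, *Wnt3a*, *Wnt8a*, *Wnt8b* and *Wnt9b* were at most 0.149 FPKM in either library. Among them *Wnt3a*, *Wnt8b* and *Wnt9b* were listed at 0 in positive cells and *Wnt1* at 0 in negative cells.

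Several Wnt genes sit side by side in the genome. *Wnt3a* ends 16.2 kb before *Wnt9a* on mm9 chromosome 11 (59061544 to 59104253 and 59120432 to 59147054). Of this pair *Wnt9a* was higher in positive cells, while *Wnt3a* was listed at 0 there and at 0.116 FPKM in negative cells. *Wnt6* and *Wnt10a*, 6.70 kb apart on chromosome 1 (74818466 to 74831893 and 74838593 to 74850749), were both lower in positive cells. *Wnt10b* lies 11.7 kb from *Wnt1* on chromosome 15, and *Wnt9b* lies 24.4 kb from *Wnt3* on chromosome 11. In each of these 2 pairs 1 gene was measured, and only in the negative library.

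The promoters of *Wnt11* and *Wnt6*, the ends of the ligand ratios with a pseudocount of 1 though not with 0.1, are shown to compare a ligand higher in positive cells with a ligand lower there. Both windows are RefSeq sequence of GRCm38.p6, from 250 bases before to 50 bases after a gene start, 5′ to 3′ along the gene. *Wnt11* is at chr7:98834862-98835161 and *Wnt6* at chr1:74771642-74771941, both on the plus strand. Capitals mark a match to CTTTGAT or CTTTGAA, core sequences of the kind TCF/LEF factors bind, searched on both strands.
Wnt11: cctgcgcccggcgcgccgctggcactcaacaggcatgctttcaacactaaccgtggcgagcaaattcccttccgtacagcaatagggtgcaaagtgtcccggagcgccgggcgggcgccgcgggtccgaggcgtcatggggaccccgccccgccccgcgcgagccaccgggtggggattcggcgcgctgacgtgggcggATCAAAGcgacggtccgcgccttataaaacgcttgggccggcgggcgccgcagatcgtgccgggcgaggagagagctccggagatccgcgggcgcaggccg
Wnt6: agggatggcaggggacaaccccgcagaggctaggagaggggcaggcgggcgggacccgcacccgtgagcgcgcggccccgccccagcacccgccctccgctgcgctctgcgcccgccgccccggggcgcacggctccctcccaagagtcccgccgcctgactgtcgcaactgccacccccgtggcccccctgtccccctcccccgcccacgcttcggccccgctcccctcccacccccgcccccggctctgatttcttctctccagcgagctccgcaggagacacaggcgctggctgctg
The *Wnt11* window holds CTTTGAT on the opposite strand, 51 to 45 bases before the start, and the *Wnt6* window holds neither sequence. The *Wnt11* window was taken on the condition that it held a match, and the *Wnt6* window without that condition. This contrast is therefore set by the choice and is no result. Windows were matched by symbol, so a window's start need not be that of the deposited transcript. Both are rich in G and C, at 71.3% and 76.7%. A window was found for 33 of the 44 genes, 41 windows in all, of which 2 (*Wnt11* and 1 of *Wnt5b*) held a match, or 4.88%. Of all 32851 windows 8.65% did. A match describes the letters and shows no binding.

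Among receptors, Frizzled genes of the highest level were higher in ScxGFP-positive cells, though within 2-fold. *Fzd2* stood at 25.0 FPKM in the positive against 13.2 in the negative library (log2 ratio 0.88), *Fzd1* at 20.4 against 14.7 (0.45) and *Fzd7* at 11.2 against 9.21 (0.25). These 3 receptors, which are close relatives, made up 73.9% of Frizzled FPKM in positive and 62.2% in negative cells. *Fzd2* was first in order in the positive library, and *Fzd1* in the negative library. With the median ratio set to 1, *Fzd2* passed 2-fold at 1.19, and it did so under the other 4 scalings too.

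*Fzd8* was higher in ScxGFP-positive cells. It stood at 5.77 FPKM in the positive against 1.30 in the negative library (log2 ratio 1.56), and 2.03% of measured genes had a higher ratio. Its share of Frizzled FPKM was 7.53% in positive and 2.18% in negative cells. *Fzd8* is among 6 Frizzled genes, with *Fzd1*, *Fzd2*, *Fzd7*, *Fzd9* and *Fzd10*, whose listed transcript fills its whole genomic span. For these genes spliced RNA, unspliced RNA and genomic DNA cannot be told apart.

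*Fzd6*, a receptor known from planar polarity of the skin, was lower in positive cells, at 0.712 against 4.16 FPKM (log2 ratio −1.59). *Fzd10* stood at 1.23 against 3.81 (−1.11), a ratio of −0.88 with the median ratio set to 1. Positive FPKM was 17.1% and 32.3% of the negative value. The epidermal markers lay between 2.75% and 32.2%, with a median of 4.39%, and the upper end was *Krt18* at 0.448 against 1.39 FPKM. Endothelial markers lay between 2.93% and 48.4% and Schwann cell and nerve ones between 1.54% and 18.2%. Leukocyte and macrophage markers lay between 1.26% and 3.82% and erythroid ones between 1.03% and 3.10%. The part of any of these cells in these receptors was not tested. The other Frizzled genes were close together in the 2 libraries. *Fzd3* stood at 4.33 against 5.74 FPKM, *Fzd4*, also the receptor of norrin, at 6.79 against 6.15, *Fzd5* at 0.902 against 1.15 and *Fzd9* at 0.249 against 0.195. The transcript estimate of *Fzd5* differed between the libraries at these low levels. Its NM_022721 had 99.9% of the gene's FPKM in positive and 33.3% in negative cells.

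The LRP co-receptors, which Wnt brings to Frizzled in the beta-catenin branch, summed to 17.8 FPKM in the positive against 17.9 in the negative library, 99.7% as deposited and up to 148% under the other scalings. *Lrp6* stood at 12.6 against 10.3 FPKM and *Lrp5* at 5.29 against 7.62. *Lrp6* was thus the more abundant of the pair in both, with 70.4% of their sum in positive and 57.4% in negative cells.

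Ror tyrosine kinase receptors, which take up the *Wnt5a* signal, were higher in ScxGFP-positive cells. *Ror1* stood at 3.202 FPKM in the positive against 0.767 in the negative library (log2 ratio 1.25), exceeded by 2.93% of measured genes. *Ror1* reached the filter in the positive library only, so this place is partly fixed by the filter. *Ror2* stood at 4.44 against 2.68 (0.56). The ligand *Wnt5a* itself was on the other side, at 61.7% of its negative value as deposited and up to 91.3% under the other scalings. Ligand and receptors thus lay on opposite sides, with *Wnt5a* and *Ror2* within 2-fold as deposited. *Ror1* FPKM was 72.1% of that of *Ror2* in positive and 28.6% in negative cells.

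*Ryk*, a receptor with an inactive kinase domain that binds Wnt, had similar deposited totals but a different transcript estimate in each library. Its summed FPKM was 7.58 in the positive against 7.63 in the negative library (log2 ratio −0.0083), 99.4% of the negative value as deposited and up to 147% under the other scalings. NM_013649 stood at 5.86 FPKM in the positive against 1.58 in the negative library, or 77.2% and 20.8% of the gene. The shorter NM_001042607 stood at 1.73 and 6.05 FPKM. The leading transcript was thus a different one in each library.

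The 2 transcripts, 3267 and 3258 bases in the deposited tables, differ by 9 bases at the start of coding exon 8 of 15, which is why this stretch is shown. It is read 5′ to 3′ from the GENCODE M21 transcripts matched to each RefSeq identifier, with 30 bases on each side, and capitals mark the extra bases, at chr9:102885994-102886002 of GRCm38 on the plus strand.
NM_013649: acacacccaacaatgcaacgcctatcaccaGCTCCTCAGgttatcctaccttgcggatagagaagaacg
NM_001042607: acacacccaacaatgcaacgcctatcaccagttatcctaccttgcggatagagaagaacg
The extra stretch adds 3 codons and keeps the reading frame. The split rests on fragments that cross this junction, at a mean depth over the gene of 17.3 in the positive against 18.2 in the negative library. The tables give no interval for it.

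**Figure D4:**
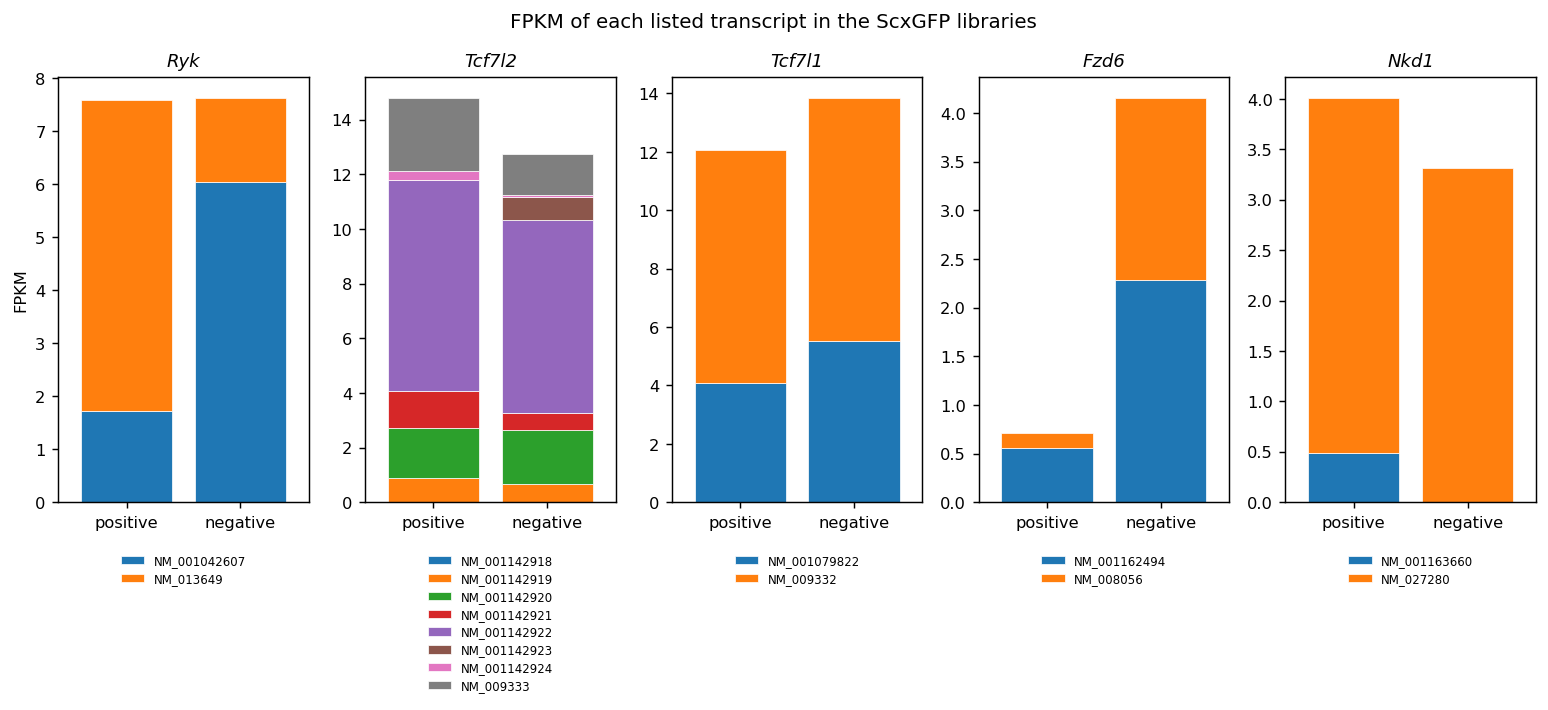
FPKM of each listed transcript, stacked, in the positive and negative libraries for *Ryk*, *Tcf7l2*, *Tcf7l1*, *Fzd6* and *Nkd1*, each panel with its own axis from 0. The bars of *Ryk* reach a similar height with the colours exchanged, whereas those of *Tcf7l1* keep a similar division.

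R-spondin receptors keep Frizzled at the cell surface by removing the ligases RNF43 and ZNRF3. *Lgr4* was the most abundant of them in both libraries, at 7.003 FPKM in positive and 8.05 in negative cells. *Lgr5*, known as a stem cell marker of gut and hair follicle, stood at 3.98 against 0.792 (log2 ratio 1.47), exceeded by 2.22% of measured genes. *Lgr5* too reached the filter in the positive library only, so this place is partly fixed by the filter. It was 56.8% of *Lgr4* in positive and 9.83% in negative cells. *Lgr6* lay under the filter, at 0.513 against 0.681.

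The cell types that carry the higher ligands and receptors are not known from these pools. Skeletal muscle markers were higher in positive cells as well: 6 of 7 were at least 2-fold higher and 0 lower. Over all symbols with a value 2.21% were higher. FPKM of the muscle markers summed to 149 against 18.9 (*Actc1*, 107 against 13.6). Of 6 tendon markers 5 were higher, and the 6 summed to 200 against 8.91 (*Scx*, 134 against 1.69). The sort was on GFP under *Scx* regulatory DNA, so the *Scx* difference, and with it most of this sum, follows from the sort. Of 6 cartilage markers 0 passed 2-fold, and they summed to 92.6 against 68.9 (*Col2a1*, 68.1 against 40.4). The part of each in *Wnt9a*, *Wnt11*, *Fzd8*, *Ror1* and *Lgr5* was not tested.

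**Figure D5:**
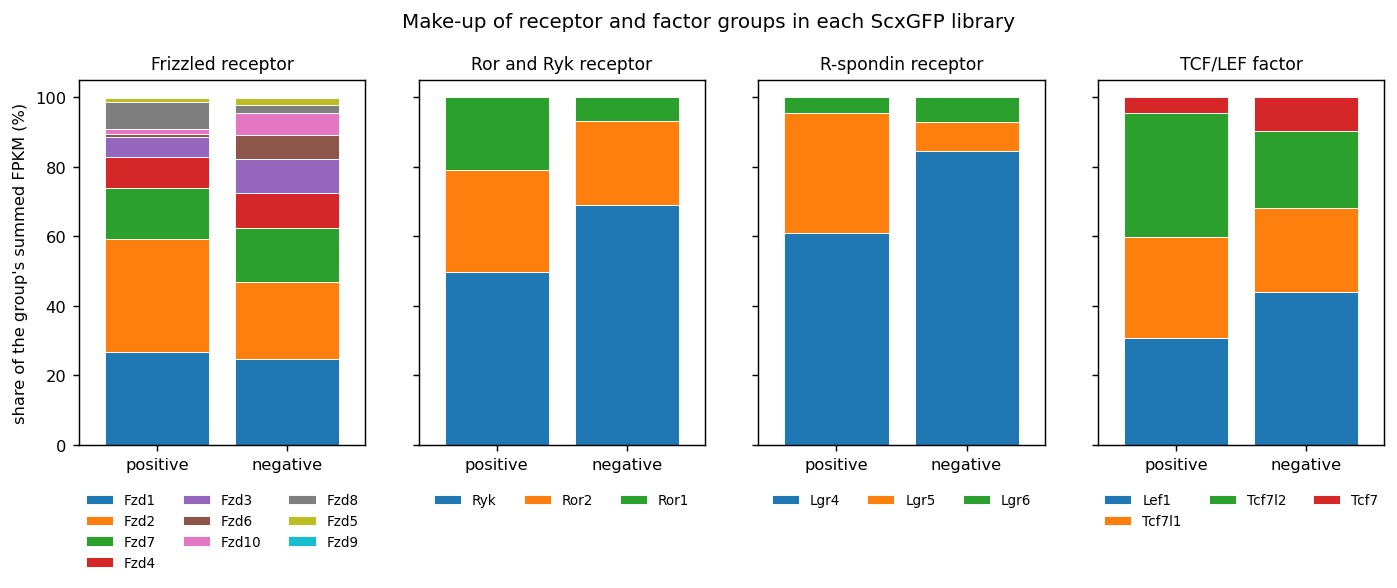
Share of each gene in the summed FPKM of its group, in %, for the positive and negative libraries, in 4 groups. *Fzd8*, *Ror1*, *Lgr5* and *Tcf7l2* take larger shares in the positive library, and *Fzd6*, *Fzd10*, *Lgr4* and *Lef1* in the negative library.

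The TCF/LEF factors, which carry beta-catenin to DNA, differed in make-up between the populations. *Lef1* stood at 12.7 FPKM in the positive against 25.2 in the negative library (log2 ratio −0.93, or −0.61 with the median ratio set to 1). *Tcf7*, the other factor of the family known mainly as an activator, stood at 1.90 against 5.63 (−1.19), or −0.94 with the median ratio set to 1. *Tcf7l1*, known mainly as a repressor, stood at 12.1 against 13.9 and *Tcf7l2* at 14.8 against 12.7. The family's summed FPKM was 72.3% of the negative library as deposited and up to 107% under the other scalings, so no direction holds for the sum. The most abundant factor was *Tcf7l2* in positive cells, with 35.7% of the family's FPKM, and *Lef1* in negative cells, with 43.8%. *Lef1* FPKM was 0.861 times that of *Tcf7l2* in positive cells and 1.97 times in negative cells.

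Markers of other lineages were lower in the positive library beside *Tcf7* and *Lef1*. Leukocyte and macrophage markers summed to 5.67 FPKM in positive and 298 in negative cells, with 6 of 6 at least 2-fold lower. Over all symbols with a value 5.46% were lower. Endothelial markers summed to 3.59 and 56.5 with 7 of 8 lower, Schwann cell and nerve markers to 3.02 and 33.6 with 5 of 6 lower, and erythroid markers to 155 and 6425 with 6 of 6 lower. The most abundant of each were *Tyrobp* (1.73 against 84.6), *Cdh5* (0.447 against 15.3), *Fabp7* (0.796 against 13.6) and *Hbb-y* (85.8 against 3303). Single markers of these lists lay at 1.03% to 48.4% of their negative value, against 33.8% for *Tcf7* and 50.6% for *Lef1*. The part of these cells in the 2 factors was not tested.

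*Tcf7l2* had 8 listed transcripts, and the same transcript, NM_001142922, led in both libraries, with 52.1% of the gene's FPKM in positive and 55.5% in negative cells. NM_001142924, which starts further into the gene and is the shortest at 3454 bases, stood at 0.324 against 0.0915 FPKM. The 2 transcripts of *Tcf7l1* divided the gene alike, NM_009332 having 66.1% in positive and 60.2% in negative cells.

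Feedback genes, which Wnt signalling switches on and which then restrain it, were within 2-fold. *Axin2*, a scaffold of the destruction complex and a widely used readout of the beta-catenin branch, stood at 12.7 FPKM in the positive against 15.2 in the negative library (log2 ratio −0.24, or 0.027 above the median of all genes). *Nkd2* stood at 11.6 against 12.8 and *Nkd1* at 4.01 against 3.31; both encode Dishevelled-binding inhibitors. The second *Nkd1* transcript, NM_001163660, was at 0.486 FPKM in positive and 0.000313 in negative cells. The 3 genes summed to 28.3 against 31.3 FPKM, 90.5% of the negative library as deposited and up to 134% under the other scalings. No direction thus holds for the sum, nor for *Axin2* and *Nkd2*, whereas *Nkd1* stayed higher in positive cells, at 121% to 179%.

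The rest of the pathway was taken from 7 lists of 78 genes, whose values were not recomputed under other scalings. Neither gene of Wnt secretion passed 2-fold: *Wls*, the carrier of Wnt to the cell surface, stood at 6.39 against 7.74 FPKM and *Porcn*, the acyltransferase, at 2.30 against 2.70. Of 16 genes found of cytoplasmic transduction and the destruction complex, 0 passed in either direction, and their median log2 ratio of −0.20 was 0.067 above that of all genes. *Ctnnb1*, which encodes beta-catenin, stood at 72.8 against 99.8 FPKM (−0.45). The scaffold gene *Apc2* (1.02 against 0.376, log2 ratio 0.55) and the kinase gene *Gsk3a* (12.3 against 18.4, −0.55) had larger ratios; near *Ctnnb1* were *Fbxw11* (7.12 against 10.4), of a ubiquitin ligase, and the scaffold gene *Axin1* (4.27 against 6.20). Of 12 nuclear cofactors 0 passed; the co-repressor gene *Ctbp2* stood at 3.85 against 8.27 (−0.93). Of the Groucho-type co-repressor genes, *Tle3* (10.4 against 15.7) and *Tle4* (4.59 against 7.13) were lower and *Tle2* (3.70 against 2.23) higher, all within 2-fold.

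Genes past 2-fold were found in the other 4 lists. Their counts are to be read against 2.21% higher and 5.46% lower among all symbols with a value. Among measured genes these shares were 4.03% and 9.98%. Of 5 receptor turnover genes 1 was lower, *Rnf43*, a ligase that removes Frizzled (0.0883 against 2.20 FPKM). It reached the filter in the negative library only and so was bound to differ. Another 1 was higher, the imprinted gene *Mest* (247 against 121), listed for a reported effect on LRP6 maturation. The other ligase, *Znrf3*, stood at 2.04 against 3.58, and *Kremen2*, of a Dickkopf receptor, at 5.21 against 8.58. Of 12 planar cell polarity genes 2 were lower, the cadherin genes *Celsr1* (1.30 against 4.80) and *Celsr2* (1.34 against 3.97), and 0 higher. The formin gene *Daam1* (3.40 against 5.32) and *Prickle1* (7.60 against 10.9) stayed within 2-fold.

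Of 18 secreted modulators 4 were higher and 1 lower, to be read against 2.21% and 5.46% of all symbols with a value. The R-spondin genes *Rspo1* and *Rspo3*, whose products bind the Lgr receptors, were among the higher ones, at 1.69 against 0.190 and 4.20 against 0.883 FPKM, beside *Lgr5*. Both R-spondin genes reached the filter in the positive library only and so were bound to differ. The other higher ones were the antagonist genes *Sfrp2* (44.9 against 8.02) and *Dkk2* (21.3 against 6.67). The lower one was the antagonist gene *Wif1* (6.67 against 14.6), named after its value was seen. Of 12 further genes that respond to Wnt in some tissues 3 were lower and 0 higher: *Msx2* (2.003 against 19.8), *Msx1* (1.12 against 8.24) and *Myc* (9.23 against 20.1). *Id2* stood at 10.3 against 20.2, within 2-fold. *Msx1* and *Msx2* also respond to BMP signals and are expressed in ectoderm and distal mesenchyme.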

How the data were processed

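RNA sequencing of 1 ScxGFP-positive and 1 ScxGFP-negative pool was taken from the deposited tables. Per the labels' protocols, FACS-sorted cells gave total RNA (RNeasy micro kit), and cDNA came from NuGEN Ovation RNA-Seq v2. The genome mm9 and the aligners TopHat 1.4.1 and Bowtie 0.12.7 are named per the submitters' processing notes; for the abundance program, name and version are not given in the sources used here. The deposited values are FPKM, with coverage (depth of aligned bases) and transcript length, per the file headers. Symbols with a failed row (6) were left out. Coverage per FPKM was 2.28 and 2.39, and coverage times length summed to 0.687 and 0.875 gigabases in the positive and negative libraries; this product, per gene, is the number of aligned bases quoted. Starts were shifted to count from 1.

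FPKM was summed per symbol, with a pseudocount of 1, a minimum FPKM of 1 and a 2-fold threshold; no count test was run, since the tables hold no counts. All 44 genes are named, with both values where measured; of each further pathway list the up to 4 measured genes with the largest ratios, and *Ctnnb1*; of each marker list the sum and the most abundant marker. The members and lists were chosen with earlier results of these data known, so none is independent support. Promoter windows came from RefSeq GRCm38.p6 and transcript sequence from GENCODE M21 (GRCm38), another build than the files' mm9. Calculations used Python 3.11.15, pandas 2.3.3 and numpy 2.4.6, and the scripts were tested on simulated data. These were a noise-free copy of the negative library with known folds put into highly expressed genes. The test checks the arithmetic and not the precision of low values.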

Additional observations from a re-analysis of the deposited data

How the results depend on the processing

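Alternatives were 11: other pseudocounts, filters, scalings, the highest transcript in place of the sum, and no low-data rows. As deposited, 5 genes were at least 2-fold higher, 8 lower, with a median log2 ratio of −0.13. Both counts were 0 with a pseudocount of 5; with a minimum FPKM of 5 they were 1 and 2, since fewer genes are tested. With the median ratio set to 1, 5 were lower and the median was 0.18; with equal upper quartiles, 5 and 0.14. TPM gave 10 higher and a median of 0.30, TPM without haemoglobin genes 9 and 0.22, and TPM without transcripts under 200 bases 11 and 0.42. Each TPM setting had 39 genes measured, since the pseudocount and filter of 1 weigh less on TPM than on FPKM. Relative to all measured genes the median stayed between 0.087 and 0.22 higher under every alternative with a filter, and was 0.034 lower with none. Of 347 single-gene ratios, 313 kept their side of 2-fold, 34 crossed it and 0 changed sign after a call. *Wnt4*, *Fzd10* and *Tcf7* lost theirs under 4, 3 and 3 scalings. No paired analysis was possible because each group has 1 library. Low values also limit precision: the positive values of *Wnt10b* and *Wnt10a* rest on about 80.4 and 105 aligned bases.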
